A study of Mus musculus with 6 samples.

Results

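The IL-1 and IL-36 cytokines and their receptors were followed in RNA sequencing of imiquimod-treated mouse ear skin. The group was taken by gene symbol and holds 10 of the 23518 genes in the deposited table: the ligand genes Il1a, Il1b, Il1f6, Il1f8 and Il1f9, the antagonist genes Il1rn and Il1f5, and the receptor genes Il1r1, Il1rl2 and Il1rap. The table uses older names for the IL-36 genes, so that Il1f6, Il1f8, Il1f9 and Il1f5 are Il36a, Il36b, Il36g and Il36rn. All 10 passed the filter on low values. The study compared 3 wild-type samples (WT) with 3 samples labelled HdR, taken here as the HOIL1 ΔRING1 mice named in the series' design text, in which HOIL1 lacks its RING1 domain. HOIL1, encoded by Rbck1, is a subunit of the linear ubiquitin chain assembly complex, which attaches linear ubiquitin chains to proteins of the NF-kB pathway. Both genotypes received 10 mg of a cream with 5% imiquimod, an agonist of Toll-like receptor 7, and were sampled on day 1, so that no group here shows untreated skin. The title of the series speaks of linear ubiquitination in keratinocytes, but the sources used here give no strain, no age, no cell type to which the deletion was restricted and no word on whether replicates came from separate mice, so p values measure only the spread between these samples.

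IL-1 cytokines are alarm signals of barrier tissues. IL-1α and IL-1β bind IL-1R1, and IL-36α, IL-36β and IL-36γ bind the IL-36 receptor encoded by Il1rl2. Both receptors then recruit the same accessory chain, IL-1RAcP, and signal through MyD88 and IRAK kinases to NF-kB. IL-1Ra and IL-36Ra, encoded by Il1rn and Il1f5, occupy the receptors without recruiting the accessory chain. Keratinocytes are a main source of IL-1α and IL-36 in skin, macrophages and neutrophils are known sources of IL-1β, and inherited loss of IL-36Ra causes a pustular form of psoriasis in humans.

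Of the 10 genes, Il1b, Il1f6 and Il1f8 rose in HdR skin, Il1rl2 and Il1rap fell, and the other 5 did not pass the test. Values are sums of aligned bases per gene, scaled to bases per Mb of effective library size, and a change is the HdR mean less the WT mean of log2(value + 1). Calls are those of limma with a Benjamini-Hochberg adjusted p under 0.05 over all 15049 genes tested. The counts of 3 risen and 2 fallen genes stand against a background of 12.7% of all tested genes higher and 17.9% lower (30.6% in either direction), and the median change of the 10 genes was 0.093 against -0.13 over all genes. Leaving out WT replicate 1, 1 of the 10 genes rose and 0 fell (2 and 2 at an unadjusted limma p under 0.05), and without HdR replicate 2, 1 rose. Without WT replicate 3, 0 fell (2 unadjusted), and without HdR replicate 3, 1 fell.

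Transcript length moved with genotype across all genes. The slope of log2 coverage on log2 transcript length, centred on each gene's mean, was 0.0407 to 0.247 in the WT libraries and -0.272 to -0.0806 in the HdR libraries. The length trend and the genotype cannot be told apart, and both receptor genes that fell have long transcripts (Il1rl2 3908 nt and Il1rap 4520 nt) while the ligand genes that rose have short ones (883 nt for Il1f6, 1217 nt for Il1f8 and 1356 nt for Il1b). Il1r1, which did not pass, has the longest (5819 nt). Each gene is therefore also given after a length correction, in which the trend was subtracted library by library. After it 2 of the 10 genes rose and 1 fell, against 10.9% higher and 8.49% lower among all genes (19.4% in either direction). Rbck1 was lower in every HdR library (12.997 to 23.9 bases per Mb, against 55.1 to 66.6 in WT; log2 change -1.70, limma adjusted p = 0.00438), Rnf31 fell (-1.18, adjusted p = 0.0271) and Sharpin, another subunit gene of the complex, did not pass (0.35). After length correction Rbck1 still passed (-1.74, limma adjusted p = 0.00439) and Rnf31 did not (-0.80, adjusted p = 0.061). Total coverage was 4433 to 5966 Mb per library, or 14.8 to 19.9 M read pairs if 1 pair gives 300 bases, and the 10 genes then drew between 243 (Il1b) and 5435 (Il1f5) pairs per library.

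**Figure D1:**
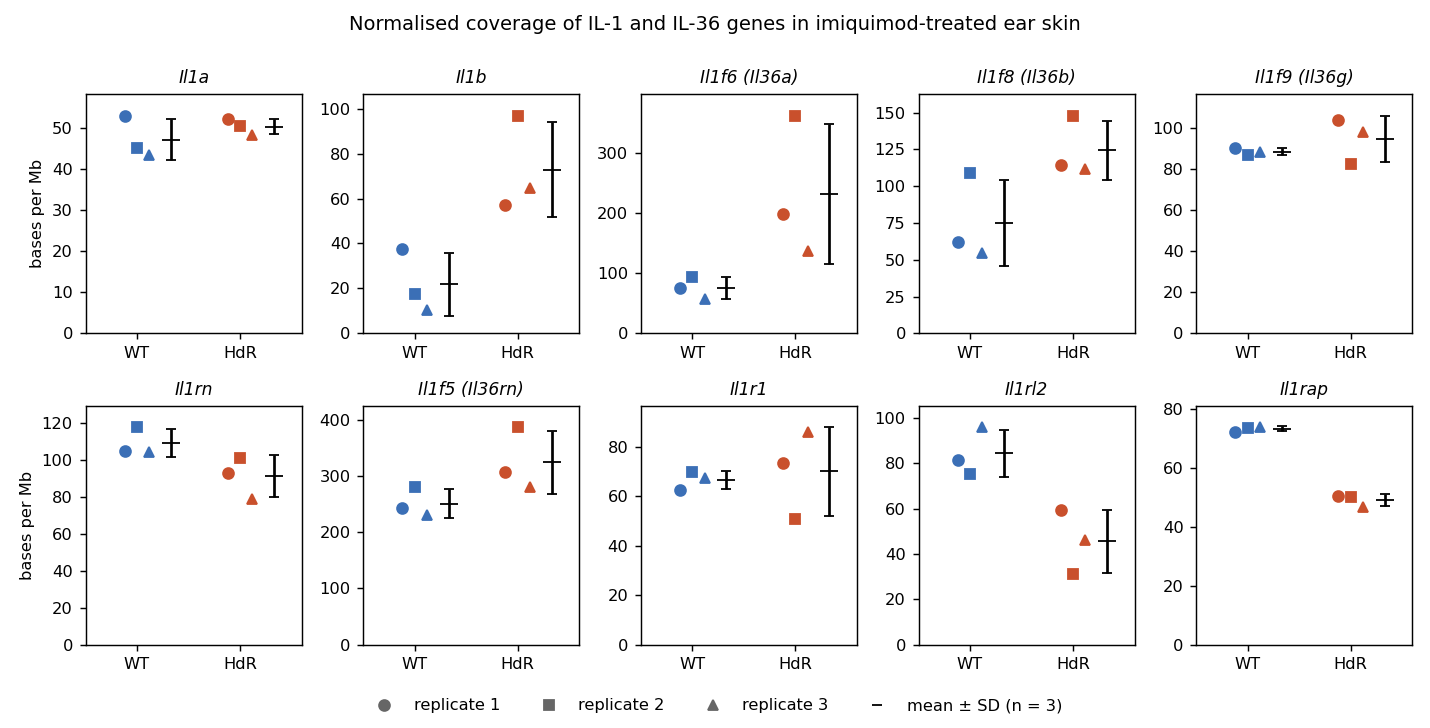
Normalised coverage in bases per Mb (vertical axis, starting at 0) of the 10 genes in each WT and HdR library, with marker shape for the replicate number and bars for mean ± SD of 3. Il1b, Il1f6 and Il1f8 lie higher in every HdR library than in any WT library, as do 20.9% of all genes tested. Il1rl2, Il1rap and Il1rn lie lower in every HdR library than in any WT library, as do 30.7% of all genes tested.

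The genes sit in 3 clusters and at 1 separate locus on GRCm38. Il1f8, Il1f9, Il1f6, Il1f5 and Il1rn lie in this order, all on the plus strand, on chromosome 2 between positions 24153161 and 24351494, with Il1f10 (encoding IL-38) between Il1f5 and Il1rn. Il1a (129299610 to 129309972) and Il1b (129364570 to 129371139) are neighbours on the minus strand of the same chromosome. Il1r1 (40225080 to 40317257) and Il1rl2 (40324610 to 40367562) are neighbours on chromosome 1, and Il1rap lies on chromosome 16 (26581704 to 26730117). Neighbours differed in their calls. Il1b rose and Il1a did not pass, Il1rl2 fell and Il1r1 did not pass, and Il1f9, between the risen Il1f8 and Il1f6, did not pass.

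RefSeq promoter entries on GRCm38.p6 were matched for 9 of the 10 genes. The 250 bases before the transcription start are shown for the neighbours Il1a and Il1b, which differed in outcome, for the risen Il1f8 and for the fallen Il1rl2. Capitals mark matches on either strand to the AP-1 motif TGANTCA and the TATA motif TATAAA. The windows are chr2:129309973-129310222 (minus strand) for Il1a, chr2:129371140-129371389 (minus strand) for Il1b, chr2:24152922-24153171 (plus strand) for Il1f8 and chr1:40324339-40324588 (plus strand) for Il1rl2.
Il1a: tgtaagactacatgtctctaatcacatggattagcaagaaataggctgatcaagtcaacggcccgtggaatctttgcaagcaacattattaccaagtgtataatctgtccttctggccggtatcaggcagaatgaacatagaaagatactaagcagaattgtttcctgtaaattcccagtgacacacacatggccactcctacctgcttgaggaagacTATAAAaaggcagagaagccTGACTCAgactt
Il1b: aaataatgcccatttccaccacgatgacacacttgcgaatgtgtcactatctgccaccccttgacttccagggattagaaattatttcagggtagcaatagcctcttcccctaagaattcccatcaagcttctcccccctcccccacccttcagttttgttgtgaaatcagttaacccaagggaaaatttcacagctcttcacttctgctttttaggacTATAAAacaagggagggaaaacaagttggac
Il1f8: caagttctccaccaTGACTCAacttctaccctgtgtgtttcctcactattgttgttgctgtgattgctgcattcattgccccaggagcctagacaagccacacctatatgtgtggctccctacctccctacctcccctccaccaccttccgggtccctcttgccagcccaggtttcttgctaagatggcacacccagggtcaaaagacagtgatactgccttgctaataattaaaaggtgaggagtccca
Il1rl2: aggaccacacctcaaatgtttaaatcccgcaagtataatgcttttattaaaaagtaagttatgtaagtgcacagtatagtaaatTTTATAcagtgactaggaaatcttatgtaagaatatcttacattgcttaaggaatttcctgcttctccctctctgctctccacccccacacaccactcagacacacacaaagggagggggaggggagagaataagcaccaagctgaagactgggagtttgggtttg
Il1a and Il1b both have TATAAA close to the start, with its first base at -32 and -31. TATAAA was found in 12.4% of the 32851 mouse promoter windows of this length and TGANTCA in 6.75%. The match in Il1rl2, at -166, is on the opposite strand. TGANTCA occurred at -12 in Il1a, at -236 in Il1f8 and at -141 in the first promoter of Il1rn. The NF-kB (kB) consensus occurred in 1 of the 13 promoter windows of these genes, the second promoter of Il1r1, against 7.25% of all windows. A match is a run of letters and not a measured binding site.

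Il1b, the gene of the secreted inflammatory cytokine IL-1β (ENSMUSG00000027398.13), had the largest log2 change of the 10 genes as scaled here, though with sample quality weights Il1f6 changed more (1.29, against 1.11 for Il1b). It read 37.5, 17.4 and 10.3 bases per Mb in WT replicates 1 to 3 and 57.2, 96.7 and 64.5 in HdR replicates 1 to 3. All HdR values were above all WT values, as for 20.9% of all genes tested. Within WT the highest library stood well above the lowest. Means were 21.7 ± 14.1 and 72.8 ± 21.04 (SD, n = 3), a log2 change of 1.85 (SE 0.40, 95% interval 0.94 to 2.75; limma adjusted p = 0.0154). Length correction gave a change of 1.48 (limma adjusted p = 0.0325). The call did not hold when HdR replicate 2 was left out (1.63, limma adjusted p = 0.0615), with sample quality weights (1.11, adjusted p = 0.113) and with no filter (adjusted p = 0.0502). The antisense gene Il1bos overlaps the 5′ end of Il1b, and since the strand of counting is not given their reads cannot be told apart, but Il1bos itself was listed at 0.936 to 1.84 bases per Mb.

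Il1a, the gene of IL-1α, which epidermal cells store and release on damage (ENSMUSG00000027399.1), did not pass the test. WT replicates 1 to 3 stood at 52.8, 45.0 and 43.5, HdR replicates 1 to 3 at 52.0, 50.5 and 48.3. The genotypes overlapped, with a log2 change of 0.10 (95% interval -0.24 to 0.44, limma adjusted p = 0.637). Its sign turned with scaling to total bases (-0.22), with sample quality weights (-0.016) and with length correction (-0.0698). Gm14023 overlaps most of the Il1a locus on the opposite strand and was listed at 7.29 ± 0.662 bases per Mb in WT and 7.64 ± 1.00 in HdR. As the strand of counting is not given, their reads cannot be told apart. Within each library the log2 difference of Il1b and Il1a was -0.48, -1.32 and -1.98 in WT and 0.13, 0.92 and 0.41 in HdR. It was thus higher by 1.75 in HdR, with no overlap (two-sided exact permutation p = 0.1, the smallest that 3 against 3 samples allow; 0.1 after Benjamini-Hochberg adjustment over the 3 pairs of this kind, chosen after the values were seen).

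Among the IL-36 agonists, Il1f6, the gene of IL-36α (ENSMUSG00000026984.4), rose. WT libraries gave 76.0, 94.6 and 57.6 and HdR libraries gave 199, 362 and 136. Every HdR library was above every WT library, as for 20.9% of all genes tested, and HdR replicate 2 was the highest. Means were 76.1 ± 18.5 and 232 ± 116 (SD, n = 3), 3.05-fold higher, with a log2 change of 1.51 (SE 0.33; limma adjusted p = 0.0159). Removal of the length trend gave 0.97 (limma adjusted p = 0.0295), over 1.5 times smaller on the log2 scale. The call was lost without WT replicate 1 (adjusted p = 0.0623) and with no filter (adjusted p = 0.0508).

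Il1f8, the gene of IL-36β (ENSMUSG00000026985.1), had the smallest change of the 3 genes that rose, and its call held in few alternatives. WT replicates 1 to 3 stood at 61.9, 109 and 54.5, HdR replicates 1 to 3 at 114, 148 and 112, so that the lowest HdR library stood just above WT replicate 2. The log2 change was 0.78 (SE 0.26; limma adjusted p = 0.0479). It was 0.36 after length correction (limma adjusted p = 0.193) and 0.46 with scaling to total bases (adjusted p = 0.122), and the call held in 7 of 18 alternatives and in 1 of the 6 fits with a library left out, that without WT replicate 2.

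Il1f9, the gene of IL-36γ (ENSMUSG00000044103.4), had WT values of 90.2, 87.0 and 88.2 and HdR values of 104, 82.2 and 98.2. The genotypes overlapped and the log2 change was 0.09 (95% interval -0.25 to 0.43; limma adjusted p = 0.661), with the sign turned to -0.18 by removal of the length trend and to -0.23 by scaling to total bases. The log2 difference of Il1f6 and Il1f9 within a library was -0.61 to 0.12 in WT and 0.47 to 2.12 in HdR, a shift of 1.42 (exact permutation p = 0.1). The genotypes did not overlap in this difference between 2 agonists of the same receptor, but the pair was chosen after the values were seen. The pair joins a gene that rose with another that did not pass, so the lack of overlap is no separate result.

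The antagonist genes did not pass the test. Il1rn, encoding IL-1Ra (ENSMUSG00000026981.15), had WT values of 105, 118 and 104 and HdR values of 93.3, 102 and 79.2. All HdR values were below all WT values, as for 30.7% of all genes tested, but the change was small at -0.26 (95% interval -0.61 to 0.09; limma adjusted p = 0.218). With scaling to total bases it was -0.58 and passed (adjusted p = 0.0259). Il1f5, encoding IL-36Ra (ENSMUSG00000026983.10), had WT values of 243, 281 and 230 and HdR values of 307, 387 and 280.3. The genotypes met at 281 and 280.3, and the log2 change was 0.36 (95% interval -0.06 to 0.78; limma adjusted p = 0.155). With the replicate number as a block Il1f5 passed (limma adjusted p = 0.0402), as it did with sample quality weights (0.31, adjusted p = 0.0472) and with block and length correction together (0.44, adjusted p = 0.0304), which makes 3 of 18 alternatives.

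Agonist and antagonist genes were set against each other within libraries, which removes the scaling of the library. The log2 difference of Il1b and Il1rn was -1.46, -2.69 and -3.22 in WT and -0.70, -0.069 and -0.29 in HdR, 2.11 higher in HdR with no overlap. That of Il1f6 and Il1f5 was -1.66, -1.56 and -1.98 in WT and -0.62, -0.10 and -1.03 in HdR, 1.15 higher with no overlap, and 0.53 higher after length correction. Each had an exact permutation p of 0.1, the smallest possible, and 0.25 after Benjamini-Hochberg adjustment over the 5 pairs. The other 3 pairs overlapped between genotypes in this test, which does not use the replicate numbers. Set against the WT library of the same number, the difference was higher in all 3 HdR libraries for Il1a and Il1rn. It was lower in all 3 for Il1f9 and Il1f5. These directions were not tested, and the labels do not say what a number shares. The shift was 0.36 for Il1a and Il1rn (exact permutation p = 0.2) and 0.18 with length correction (exact permutation p = 0.5). For Il1f8 and Il1f5 it was 0.42 (exact permutation p = 0.3) and -0.085 with length correction. For Il1f9 and Il1f5 it was -0.27 (exact permutation p = 0.4) and -0.62 with length correction.

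**Figure D2:**
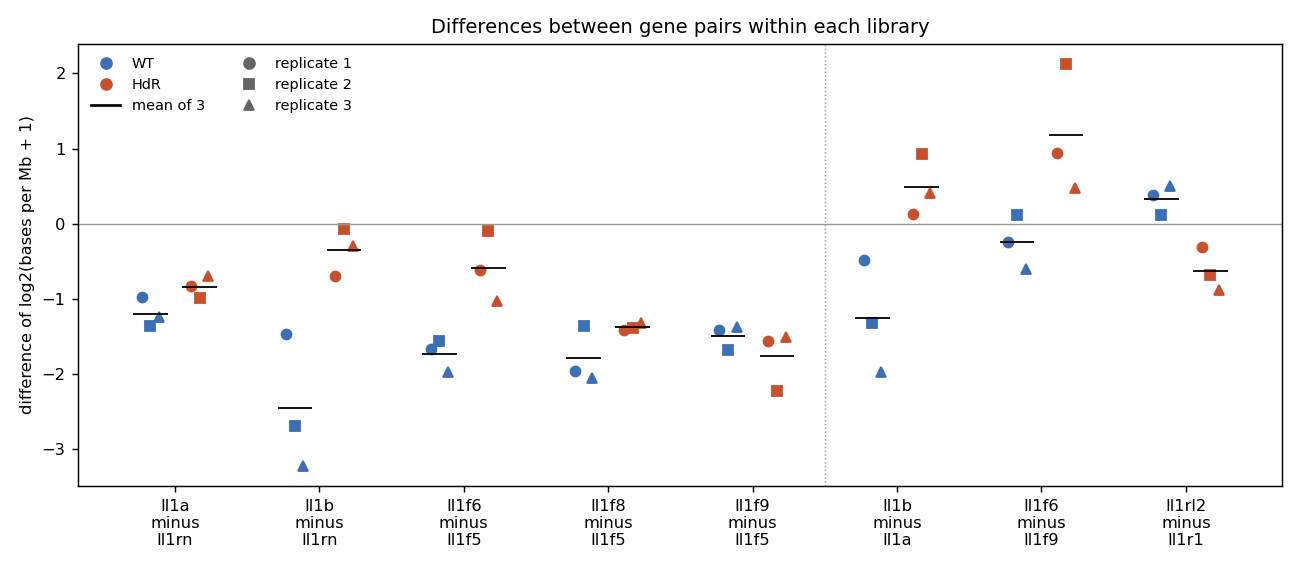
Difference of log2(bases per Mb + 1) between 2 genes within each library (vertical axis) for 5 agonist and antagonist pairs and, right of the dotted line, 3 pairs chosen after the values were seen, with black bars for the mean of 3. Il1b minus Il1rn runs from -3.22 to -1.46 in WT and from -0.70 to -0.069 in HdR.

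Of the receptor genes Il1rl2 and Il1rap fell and Il1r1 did not pass. Il1rl2, encoding the IL-36 receptor (ENSMUSG00000070942.8), had WT values of 81.6, 75.4 and 95.9 and HdR values of 59.2, 31.1 and 46.2. All HdR values were below all WT values, as for 30.7% of all genes tested. The means were 84.3 ± 10.5 and 45.5 ± 14.1 (SD, n = 3). The log2 change was -0.92 (SE 0.23; limma adjusted p = 0.0228), and -0.64 after length correction (limma adjusted p = 0.0418). The call was lost without WT replicate 1 (adjusted p = 0.078), without WT replicate 3 (adjusted p = 0.0735) and with no filter (adjusted p = 0.0582).

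Il1rap, encoding the accessory chain IL-1RAcP that both pathways share (ENSMUSG00000022514.14), had replicates close to each other in both genotypes. WT libraries gave 72.2, 73.6 and 73.8 and HdR libraries gave 50.4, 50.04 and 46.7. All HdR values were below all WT values, as for 30.7% of all genes tested. The log2 change was -0.57 (SE 0.14, limma adjusted p = 0.0205). After length correction the change was -0.22 and did not pass (limma adjusted p = 0.249), and the call was also lost without WT replicate 1 (adjusted p = 0.0947), WT replicate 3 (adjusted p = 0.0784) or HdR replicate 3 (adjusted p = 0.052). The antisense gene Gm20319 overlaps the 3′ part of Il1rap and fell from 6.33 ± 0.996 to 2.42 ± 0.414 (limma adjusted p = 0.0103), and its reads cannot be told apart from those of Il1rap either.

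Il1r1, encoding the receptor of IL-1α and IL-1β (ENSMUSG00000026072.12), had WT values of 62.6, 69.7 and 67.4 and HdR values of 73.6, 50.6 and 85.9. HdR libraries lay on both sides of the WT range (log2 change 0.041, 95% interval -0.42 to 0.50; limma adjusted p = 0.886). The change was -0.27 with scaling to total bases, -0.0101 when HdR replicate 1 was left out, -0.12 when HdR replicate 3 was, and 0.48 after length correction (adjusted p = 0.0719). The log2 difference of Il1rl2 and its neighbour Il1r1 was 0.11 to 0.50 in WT and -0.88 to -0.31 in HdR. The shift was -0.96 (exact permutation p = 0.1), and -1.13 after length correction. This pair too was chosen after the values were seen and joins a called with an uncalled gene, so its shift is no separate result. The annotated genes Gm38070 and Gm17970 overlap parts of Il1r1 and Il1rl2 on the same strand, and their share in these values was not tested.

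**Figure D3:**
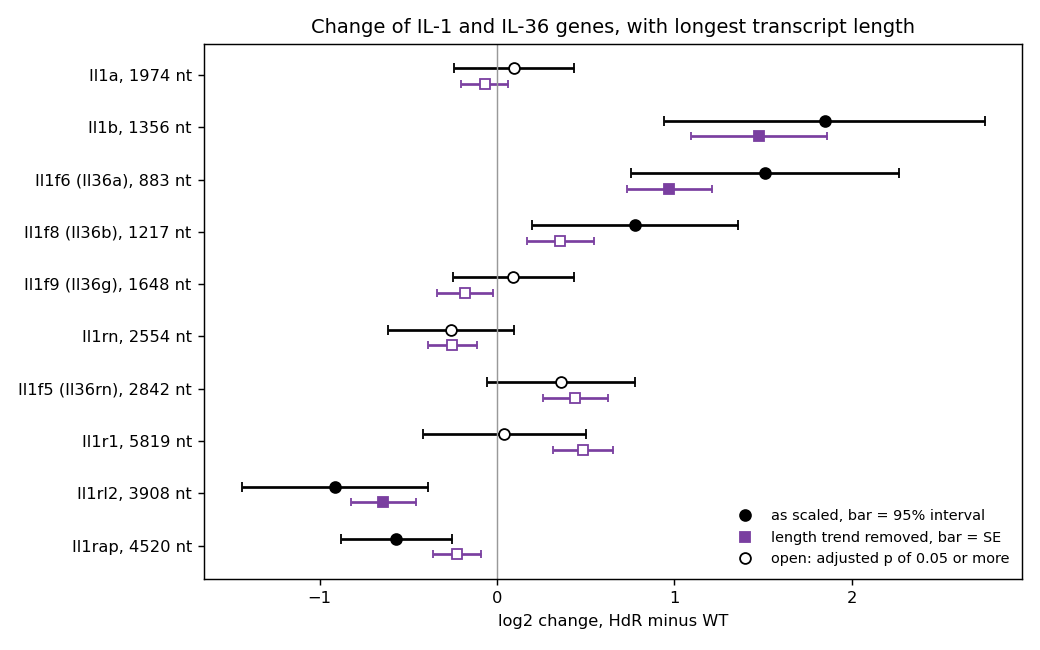
Log2 change, HdR minus WT, of the 10 genes (horizontal axis), as scaled (circles, bars are 95% intervals) and after length correction (squares, bars are SE), with the longest annotated transcript beside each name and filled markers for an adjusted p under 0.05. Il1b, Il1f6 and Il1rl2 are filled on both scales, Il1f8 and Il1rap only without the length correction.

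Per kb of transcript, the IL-36 family genes were the most covered. In WT the order of mean levels in bases per Mb per kb was Il1f5 (88.5 ± 9.31), Il1f6 (86.2 ± 20.9), Il1f8 (61.7 ± 24.1), Il1f9 (53.7 ± 0.969), Il1rn (42.8 ± 2.97), Il1a (23.9 ± 2.54), Il1rl2 (21.6 ± 2.68), Il1rap (16.2 ± 0.192), Il1b (16.0 ± 10.4) and Il1r1 (11.4 ± 0.622). Libraries of neighbours in this order overlapped, except between Il1f9 and Il1rn, between Il1rn and Il1a and between Il1rl2 and Il1rap. In HdR Il1f6 stood first (263 ± 132) and Il1b in place 5 (53.7 ± 15.5). Il1rl2 (11.6 ± 3.60) and Il1rap (10.9 ± 0.447) came last, next to Il1r1 (12.04 ± 3.08), with overlapping libraries among these 3. These levels were not corrected for the length trend that differs between the genotypes, and its part in the change of order was not tested. Libraries with the same replicate number deviated together, and Il1f6, Il1f8, Il1f5 and Il1rn were highest, and Il1rl2 lowest, in replicate 2 of either genotype. Replicate 2 also had the lowest length slope in either genotype (0.0407 in WT and -0.272 in HdR), and the part of that slope in these values was not tested.

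Of 11 other genes of the IL-1 family 9 were tested, 2 rose and 1 fell, with a median change of 0.29. Among all genes tested 12.7% rose and 17.9% fell (30.6% in either direction), with a median of -0.13. Il1rl1, encoding the IL-33 receptor ST2, rose from 19.8 ± 7.01 to 34.8 ± 5.73 (log2 change 0.82, limma adjusted p = 0.0387, and 1.23 after length correction). Il1f10 rose from 14.6 ± 1.54 to 27.1 ± 8.97 (0.80, limma adjusted p = 0.0432), and its change after length correction was 0.15 and did not pass. Il18bp, encoding a soluble inhibitor of IL-18, fell from 23.1 ± 9.53 to 9.97 ± 4.65 (-1.18, limma adjusted p = 0.0473). After length correction its change was -1.16 and did not pass (limma adjusted p = 0.0615). Il18 (log2 change 0.45) and Il1r2, the gene of the decoy receptor of IL-1 (0.29), did not pass, and neither did Il33. None of this list was called when replicate 1 or 3 of WT was left out (3 and 3 at an unadjusted limma p under 0.05) or replicate 2 or 3 of HdR (2 and 3 unadjusted), and leaving out replicate 1 of HdR left 1.

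Of 14 genes that carry the signal from the receptors, 0 rose and 4 fell (limma; 0 and 4 at an unadjusted p under 0.05, and 0 and 3 called with sample quality weights), with a median of -0.19, against 17.9% of all genes lower. The median turned to 0.16 after length correction, and quantile normalisation called 1 higher and 2 lower. The 4 genes were Tab3 (44.1 ± 1.78 to 21.9 ± 7.24, log2 change -1.03) and Tab1 (-0.80), whose proteins bind the kinase TAK1, the ubiquitin ligase gene Traf6 (-0.68) and Peli3 (-0.98), which encodes a Pellino ubiquitin ligase (limma adjusted p = 0.0194 to 0.0398). Tab2, encoding another TAK1-binding protein, did not pass (-0.54, adjusted p = 0.11). Length correction left 1 call, Tab1 (-0.69). The adaptor gene Myd88 stood at 52.8 ± 10.9 and 61.3 ± 7.88 and Irak4 at 12.5 ± 0.459 and 15.3 ± 1.00, and neither passed. The count was 0 without WT replicate 1 or WT replicate 3 (4 unadjusted in each), 1 without HdR replicate 2 and 2 without HdR replicate 3.

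Of 16 genes for maturation and release of these cytokines 13 were tested, 0 rose and 1 fell (limma; 2 and 2 at an unadjusted p under 0.05), with a median change of 0.34. These counts stand against 12.7% of all genes higher and 17.9% lower. Capn1, encoding a subunit of the calpain proteases, fell from 51.7 ± 8.35 to 28.1 ± 4.004 (log2 change -0.85, limma adjusted p = 0.0147). Casp4, encoding an inflammatory caspase, read 43.5 ± 25.1 and 80.5 ± 6.39 (1.03, limma adjusted p = 0.0532), Ctss, encoding the protease cathepsin S, 328 ± 128 and 525 ± 79.2 (0.74, adjusted p = 0.0677), Casp8 45.5 ± 2.28 and 33.1 ± 4.88 (-0.46, adjusted p = 0.0604), Ctsg, encoding the neutrophil and mast cell protease cathepsin G, 3.98 ± 2.45 and 7.43 ± 2.40 (0.84, adjusted p = 0.11), and Casp1, which cleaves pro-IL-1β, 55.5 ± 23.2 and 76.8 ± 1.89 (0.54, adjusted p = 0.139). With the replicate number as a block 5 rose and 2 fell, where 2749 of all 15049 genes tested rose and 4094 fell. With sample quality weights 6 rose and 2 fell, where 3408 of all genes tested rose and 4647 fell. Without WT replicate 2, 6 rose and 1 fell, where 2657 of all genes tested rose and 3359 fell. Without WT replicate 1 or WT replicate 3, 0 were called (2 and 3 unadjusted).

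Many genes that IL-1 or IL-36 can induce in skin cells were higher in HdR. Of 22 such genes 18 were tested, 11 rose and 0 fell (limma; 12 and 0 at an unadjusted p under 0.05), with a median of 1.48. Among all genes tested 12.7% rose and 17.9% fell. Cxcl3 and Cxcl5, among the 11, averaged 0.089 and 0.65 bases per Mb in WT and reached 1 in no WT library. They were tested only through HdR, where they are high, so their rise is no result. After length correction the count was 13 higher and 0 lower, with a median of 1.39. Nfkbia, encoding the NF-kB inhibitor IkBα, changed by 1.46, Il6 by 2.02, the neutrophil chemoattractant gene Cxcl2 by 2.75 and S100a8 and S100a9, encoding calprotectin, by 3.07 and 2.99 (limma adjusted p = 0.00381 to 0.00979). S100a8 varied widely within HdR, from 244 to 1421 bases per Mb, against 50.4 to 68.9 in WT. Ccl20, encoding a chemoattractant of cells with CCR6, rose from 37.4 ± 27.4 to 137 ± 43.1 and Cxcl1 from 9.17 ± 6.51 to 43.7 ± 20.6. Nfkbiz, encoding IkBζ, a transcriptional cofactor induced by IL-36, stood at 69.8 ± 17.7 and 93.2 ± 16.5 and did not pass (0.42), but passed after length correction (0.73, adjusted p = 0.0278). The list was chosen with earlier results of these samples known and is no independent evidence of direction, and other stimuli induce the same genes. The count was 7 without WT replicate 3 and 6 without HdR replicate 2.

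**Figure D4:**
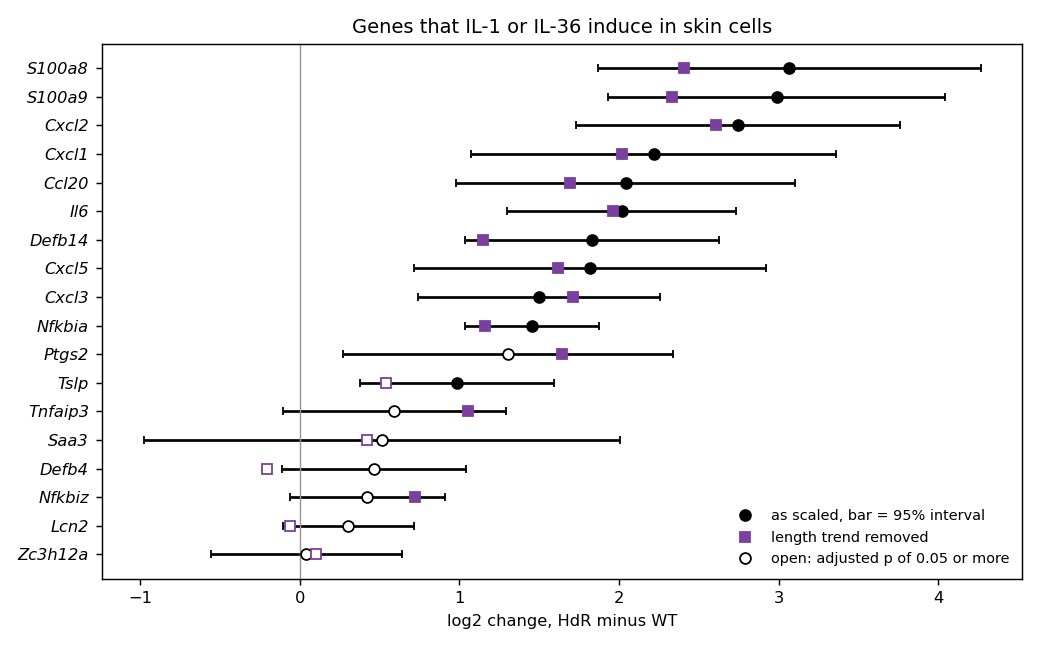
Log2 change, HdR minus WT, of the 18 tested genes that IL-1 or IL-36 can induce (horizontal axis), as scaled (circles, bars are 95% intervals) and after length correction (squares), filled for an adjusted p under 0.05. All circles lie right of 0, from 0.043 for Zc3h12a to 3.07 for S100a8. Cxcl3 and Cxcl5 reached 1 base per Mb in no WT library and were tested only through HdR.

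Markers of several cell types differed between the genotypes, and their counts stand against 12.7% of all genes higher and 17.9% lower, or 10.9% and 8.49% after length correction. Of 12 monocyte and macrophage markers 7 rose and 0 fell (6 and 0 after length correction), and their summed coverage was 1018 to 1897 bases per Mb in WT and 3035 to 3325 in HdR. Of 12 neutrophil markers 7 were tested and 4 rose (4 after length correction), with a summed coverage of 64.2 to 82.7 in WT and 96.2 to 132 in HdR, although Ly6g, Elane, Mpo, Camp and Ltf averaged under 1 base per Mb. Stfa2l1, among the 4, averaged 0.317 in WT and 3.54 in HdR. It reached 1 base per Mb in no WT library and was tested only through HdR, so its rise is no result. Of 10 dendritic and Langerhans cell markers 4 rose (3 after length correction), with sums of 201 to 218 and 283 to 321. Of 10 keratinocyte markers 4 fell and 0 rose (0 at an unadjusted limma p under 0.05), with sums of 11922 to 13549.5 and 8853 to 10421. After length correction 1 of them fell (Krt14, -0.96, limma adjusted p = 0.0176) and 1 rose (Trp63, 0.55, adjusted p = 0.0312), both named after their values were seen, and the falls of Krt1, Dsg3 and Dsc3 were no longer called. The part of these shifts in the values of Il1b, the IL-36 genes and the receptors was not tested, and in whole skin fewer cells of a type and less RNA per cell cannot be told apart. The fibroblast markers (1 rose, 2 fell of 8; sums 5562.5 to 7917 and 6217 to 7759), T cell markers (0 of 4 tested called, and 0 at an unadjusted p under 0.05; sums 23.5 to 42.8 and 29.3 to 48.0) and mast cell markers (1 of 6 rose; sums 441 to 862 and 742 to 894) overlapped in their sums. No marker in the table was at 0 in all libraries.

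The genes most like 3 of the members across the 6 libraries were found among 11737 tested genes with a mean of at least 5 bases per Mb, by Pearson's r of the log2 values, as a description in which the genotypes and the length trend are shared by all genes. For Il1b these were Stx8 (r = 0.997), Btg2, Rpp40 and Id1. For Il1f6 they were Taf10, Mrpl21, Dtymk and Clec4b1 (r = 0.998 to 0.999), and for Il1rl2 Setdb1, Srpk2, Snrpa and Atad5 (r = 0.998 to 0.999).

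**Figure D5:**
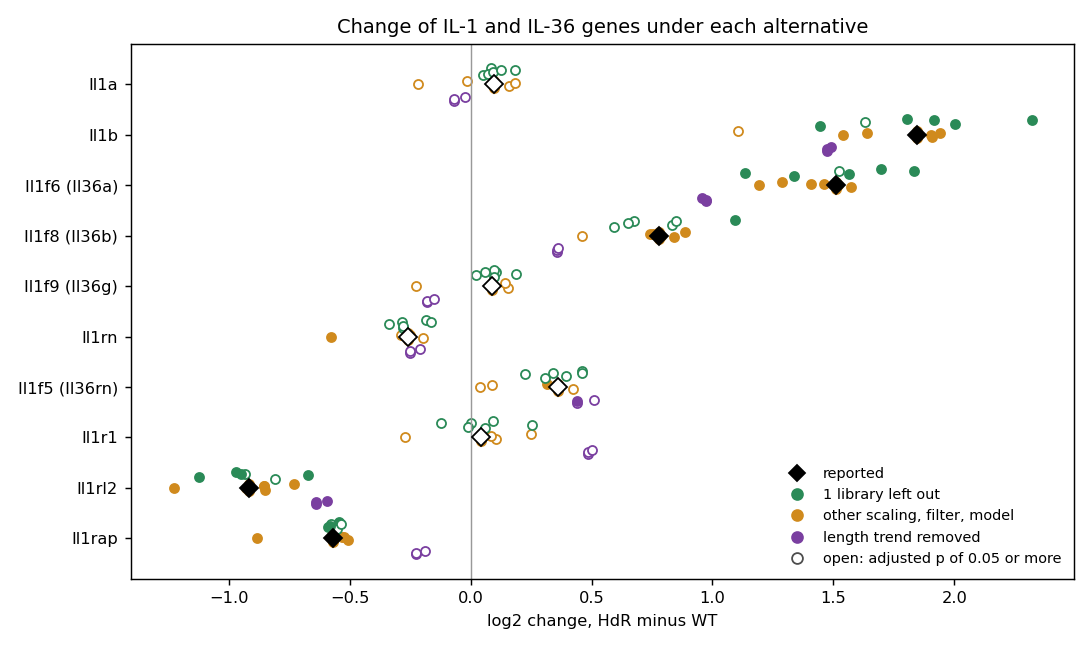
Log2 change, HdR minus WT, of the 10 genes (horizontal axis) as reported (diamonds) and under 18 alternatives (circles coloured by kind, spread vertically for visibility), filled for an adjusted p under 0.05. Il1b runs from 1.11 to 2.32 and Il1rl2 from -1.23 to -0.59, while Il1a, Il1f9 and Il1r1 lie on both sides of 0.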

How the data were processed

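RNA of imiquimod-treated ear skin was sequenced in 6 libraries, 3 WT and 3 HdR. Per the labels' protocols, a NEBNext Ultra II kit and a NovaSeq instrument were used, and the submitters' processing notes name the build GRCm38. Not given in the sources used here: aligner, counting program, annotation, strand and filters. The deposited values are coverage, a signal in whole aligned bases per gene, not read counts. Of them 1656 equal 300, which would be 1 pair of 150-base reads, so the authors' values as they stand suit no count test.

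Scaling to bases per Mb used the trimmed mean of M values, trimming 30% by log ratio and 5% by intensity, and 1 unit stands for 11.7 to 23.6 such pairs. The test, robust limma-trend on log2(value + 1), two-sided (limma 3.58.1 under R 4.3.3), took genes that reached 1 base per Mb in 3 or more libraries, with Benjamini-Hochberg adjustment, and the script was tested on simulated data. Adjusted p values given without a tool are limma's. Lengths and coordinates are those of GENCODE M21, with the longest transcript per gene, matched for 23113 of 23518 symbols. The length trend was a natural spline (4 degrees of freedom) of each library's deviation from the gene mean.

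Members and gene lists were chosen with earlier results of these data known. All 10 members are named, and of each list up to 5 genes with the smallest p, every gene that moved where 3 or fewer did. Il33, Myd88, Irak4, Casp1, Ccl20, Cxcl1, Cxcl3, Cxcl5, Nfkbiz, Stfa2l1 and Zc3h12a were added after their values were seen. Deviations of same-numbered WT and HdR libraries from their genotype means correlated at 0.163, 0.416 and 0.366 for replicates 1 to 3. WT replicate 1 and HdR replicate 3 correlated at 0.159, close to the value for replicate 1. The reported limma and permutation p values do not use the replicate number. A fit with it as a block was an alternative, and blocked values are given where they change the call of a member or move a list's count by over 1.5 times. The labels do not say what a number shares. Alternatives were quantile normalisation, scaling by median-of-ratios or by total, voom with weights for sample quality, no filter and a filter at 5 bases per Mb, pseudocounts of 0.1 and 5, the replicate block, removal of the length trend with and without the block, and each library left out. Length from protein-coding transcripts was added after the data were seen. The fit with sample quality weights divided each value by 300 and treated it as a number of read pairs. It also changed the variance model and the pseudocount, so its differences from the reported fit cannot be assigned to the weights alone.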

Additional observations from a re-analysis of the deposited data

How the results depend on the processing

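Il1b, Il1f6, Il1f8, Il1rl2, Il1rap, Il1rn and Il1f5 kept their direction in all 18 alternatives, and Il1b, Il1f6, Il1rl2 and Il1rap kept an adjusted p under 0.05 in 15, 16, 15 and 12 of them. Il1a turned to -0.22 with total scaling, -0.0157 with sample quality weights, -0.0698 after length correction (also with the replicate block) and -0.0223 with protein-coding lengths. Il1f9 turned to -0.23 with total scaling, -0.18 after length correction (also with the block) and -0.15 with protein-coding lengths, and Il1r1 to -0.27 with total scaling, -0.0101 when HdR replicate 1 was left out and -0.12 when HdR replicate 3 was, in a range of -0.12 to 0.26 over the libraries left out. None of these passed. With the replicate block 4 of the 10 genes rose, Il1f5 being the added one, 2 fell, and 6843 genes were called in all. It changed no other call among the 10 genes.

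Limma called 4605 genes, 8055 with sample quality weights, 2144 with no filter, 2886 after length correction and 2755 with protein-coding lengths, and from 427 to 6016 with a library left out (427 leaving out WT replicate 1 and 1353 WT replicate 3, 1912 leaving out HdR replicate 2 and 2812 HdR replicate 1). Of the calls 41.3% were higher, 17.6% with total scaling (917 higher, 4305 lower), 53.1% with quantile normalisation (2363 and 2084) and 56.1% after length correction. The median change of all genes was -0.41 with total scaling, -0.0125 with quantile normalisation and 0.0028 after length correction. With no filter 0 members rose (3 at an unadjusted p under 0.05) and 1 fell. With the length trend removed 1 member fell, as with the block or protein-coding lengths added. With a library left out, 1 to 3 members rose and 0 to 2 fell.

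Of the lists, the other IL-1 family genes had 3 called, 1 with total scaling, 1 with no filter, 1 with either length correction, 2 with the length correction and block, 5 with quality weights and 0 to 3 with a library left out. The signalling genes had 4, 0 with no filter (4 unadjusted), 1 after length correction (Tab1, lower), 1 with protein-coding lengths (higher) and 0 to 3 with a library left out. The maturation genes had 1, 2 with median-of-ratios or total scaling or the length trend removed, 8 with quality weights, 7 with the replicate block, 5 with block and length correction and 0 to 7 with a library left out. The induced genes had 11, 13 with the replicate block, and 6 to 11 with a library left out. With the length trend removed the shift of Il1f6 against Il1f5 was 0.53, that of Il1f8 against Il1f5 turned to -0.0847 and that of Il1f9 against Il1f5 was -0.62. The causes were not tested. With 3 samples per genotype no exact permutation test can go below 0.1, and 1 library can decide a call. Each of the 10 genes was covered by at least 243 read pairs per library.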
